A study of Mus musculus with 39 samples.

Results

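The sperm ADAM family is a set of membrane proteins with a disintegrin and a metalloprotease domain that are made by male germ cells. The set described here is 9 genes, Adam1a, Adam1b, Adam2, Adam3, Adam5, Adam18, Adam24, Adam30 and Adam32, found by symbol among the 32285 genes of the single-cell count tables. All 9 were present. In rodent sperm these proteins work in pairs and on the plasma membrane: ADAM1b and ADAM2 form fertilin, ADAM1a pairs with ADAM2 inside the endoplasmic reticulum of the germ cell, and ADAM3 is needed for sperm to pass into the oviduct and to bind the zona pellucida. ADAM3 reaches the sperm surface only when a long series of helpers is intact, among them the testis chaperones CLGN, CALR3 and PDILT, the membrane proteins TEX101, LY6K and CMTM2A/B, the peptidase ACE and the protease-like PRSS37. ADAM5, ADAM18, ADAM30 and ADAM32 are further members made in the testis, and ADAM24, also called testase 1, retains a protease active site and is known for limiting polyspermy.

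The series holds 39 mouse samples on KDM6A (UTX), a histone H3 lysine 27 demethylase encoded on the X chromosome. The members were read in its 2 single-cell libraries of dissociated whole testis, made with the Chromium 3′ v3.1 chemistry. The control library is Kdm6a fl/y; Cre-, and the conditional knockout (cKO) library is Kdm6a fl/y; Ddx4-Cre+, so that both carry the floxed X-linked allele and only the second carries Cre, expressed from the germ-cell gene Ddx4. The labels give neither ages nor the number of animals in each library, and with 1 library per genotype a difference between genotypes cannot be told apart from a difference between libraries. Sorted cKIT+ spermatogonia of the same genotypes, analysed by ATAC-seq (2 control and 3 cKO libraries) and by H3K27me3 CUT&Tag (2 and 3), were used for the chromatin at the genes.

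The control library held 229882646 UMIs (unique molecular identifiers, which count captured RNA molecules) and the cKO library 172368722. Barcodes with at least 3000 UMIs numbered 11252 and 8520, with medians of 8410.5 and 8499 UMIs, and 30 barcode sequences occurred in both sets. Each barcode was assigned to a stage when its score for 1 of 10 marker lists led the next by at least 0.25. This gate placed 280 control and 240 cKO barcodes as spermatogonia, 846 and 425 as early spermatocytes, 1511 and 1120 as late spermatocytes, 1713 and 1761 as round spermatids and 4308 and 3092 as elongating spermatids. Of the 5 germ-cell gates late spermatocytes were the least sharply separated, with 38.1% and 36.3% of barcodes within a lead of 0.5, and the elongating gate held the markers Prm1, Prm2, Tnp2 and Tnp1 among its 10 leading genes. A level is given in CPM, the member's UMIs per 1000000 UMIs of the gate, with an exact Poisson 95% interval that covers counting error only. Levels are compared within a gene and not between genes. Free RNA, which enters every droplet, was read from barcodes with 1 to 100 UMIs (7204052 UMIs in control, 6686477 in cKO), and the gated Leydig cells (113 and 101 barcodes), somatic cells that make testosterone, served as cells that should lack the members.

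Kdm6a itself had 139 UMIs in control early spermatocytes (26.7 CPM) and 7 in cKO (2.55 CPM), a log2 ratio of -3.39 (-4.73 to -2.31). In spermatogonia it had 37 and 11 UMIs. The tags lie at the 3′ end and may fall outside the deleted part of the gene.

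Transcripts of all 9 members were concentrated in the later stages, and the stage of highest level divided the family. In both libraries 6 members, Adam1b, Adam2, Adam5, Adam18, Adam30 and Adam32, were highest in late spermatocytes, where 21.9% of all genes with at least 50 UMIs were highest in control and 20.8% in cKO. On the scale of all UMIs, Adam1a and Adam24 were highest in round spermatids in both libraries, and for Adam1a this depended on the scale. With Adam3 in the cKO library, round spermatids held 2 members in control and 3 in cKO, against 22.4% and 22.8% of genes. Adam3 was highest in elongating spermatids in control, the stage of 11.3% of genes, and no member was highest there in cKO (12.0% of genes). The elongating gate differs from the others in that its 12 markers alone take 223772 of each 1000000 UMIs in control and 242097 in cKO. With the 12 elongating-spermatid markers left out of each stage's total, or only the protamine and transition protein genes, Adam1a was highest in elongating spermatids in both libraries and the other members kept their stage. UMIs per barcode are not scaled by depth, in which the gates differ. By that measure Adam1a had 1.60 in round and 0.70 in elongating spermatids in control, and 1.53 and 0.57 in cKO. Adam3 had 13.2 in late spermatocytes, 11.5 in round and 5.83 in elongating spermatids in control, and 11.6, 11.9 and 4.09 in cKO.

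**Figure D1:**
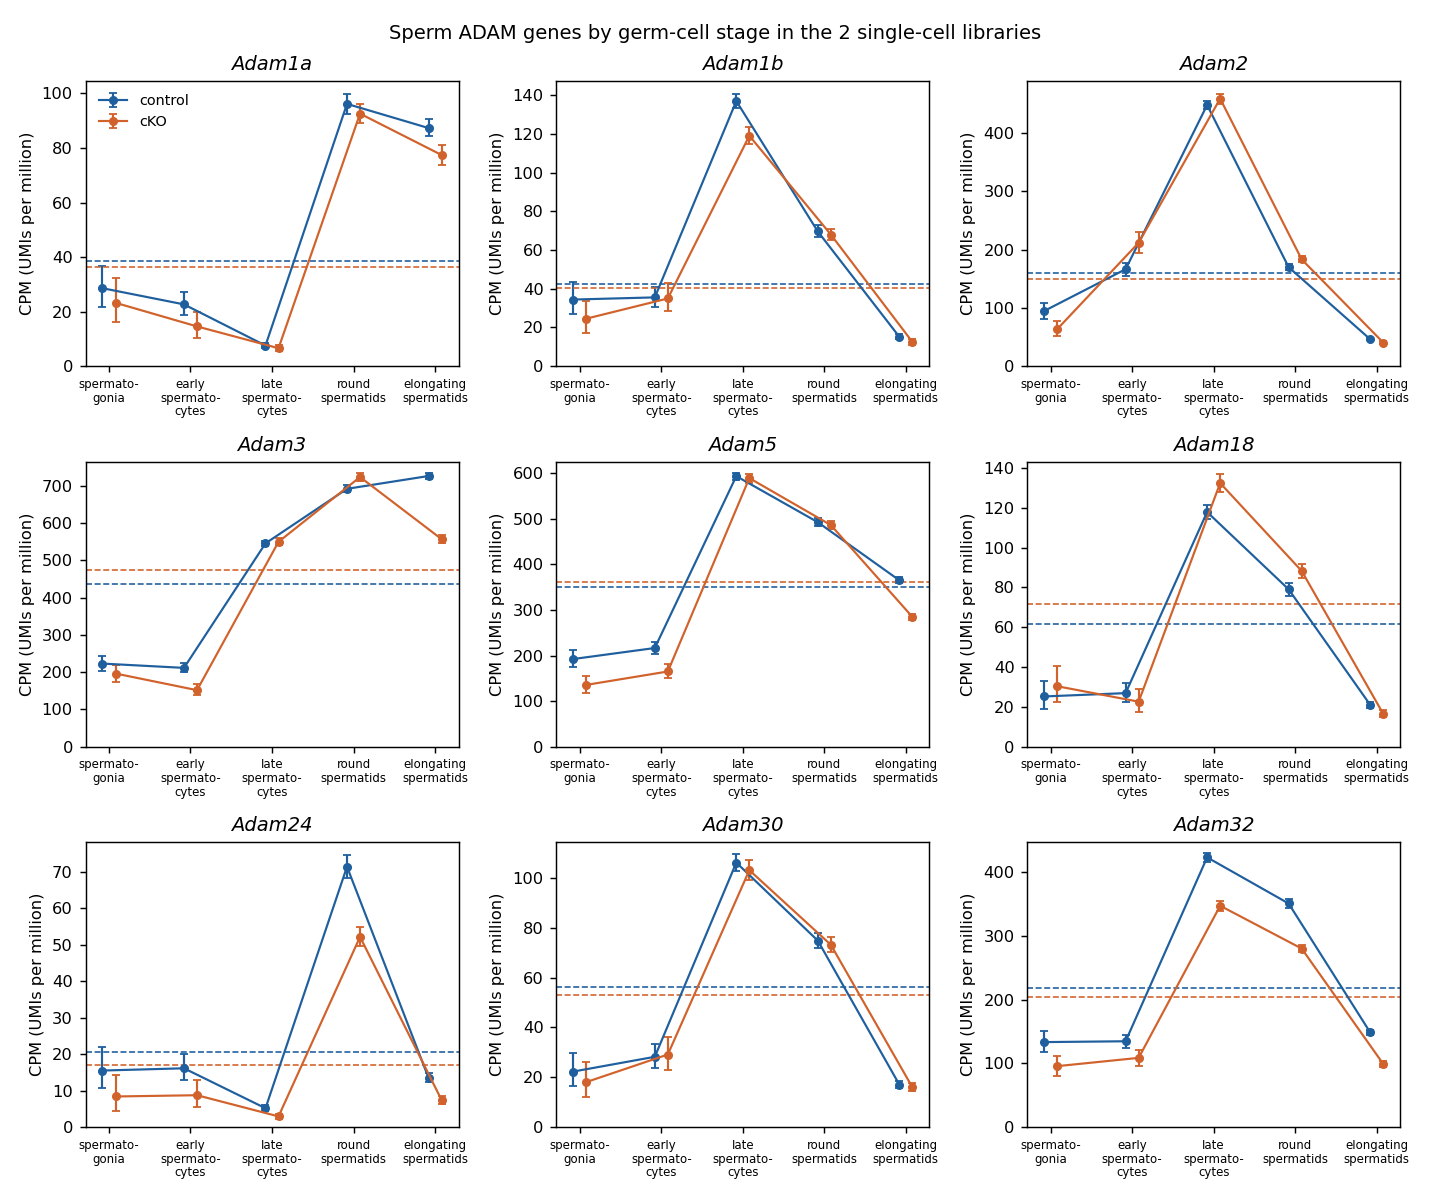
Level of each member in CPM (y axis, from 0) by germ-cell stage (x axis) in the control library (blue) and the cKO library (orange). Points are levels, bars exact Poisson 95% intervals, and dashed lines the level in free RNA of the same library. Adam1b, Adam2, Adam5, Adam18, Adam30 and Adam32 have their highest point in late spermatocytes, whereas Adam1a and Adam24 lie below their free RNA lines there and, on this scale, are highest in round spermatids.

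The fertilin genes show this split. Adam1b (ENSMUSG00000062438) had 137 CPM (133 to 141) in control late spermatocytes and 119 (115 to 123) in cKO. It had 69.6 and 67.9 CPM in round spermatids and 15.2 and 12.5 in elongating spermatids. Its level in round spermatids was thus lower than in late spermatocytes, by a log2 ratio of -0.98 (-1.05 to -0.90) in control and -0.81 (-0.89 to -0.72) in cKO. Adam1a (ENSMUSG00000072647), whose product stays in the endoplasmic reticulum, had 7.55 CPM in control late spermatocytes and 6.57 in cKO, and 96.2 and 92.6 in round spermatids. The late-spermatocyte values were 0.20 and 0.18 of the level in free RNA and so are read as background. Adam1a was higher in round spermatids than in late spermatocytes by a log2 ratio of 3.67 (3.49 to 3.86) in control and 3.82 (3.58 to 4.06) in cKO. In elongating spermatids it had 87.3 and 77.5 CPM, 2.27 and 2.12 times free RNA, and the order of these 2 stages turned with the scale. The log2 ratio of elongating over round spermatids was -0.14 (-0.21 to -0.06) in control and -0.26 (-0.35 to -0.17) in cKO, but 0.18 (0.11 to 0.26) and 0.11 (0.02 to 0.20) without the 12 elongating-spermatid markers.

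The ratio of the Adam1 pair does not depend on the scale of a gate. There were 0.055 Adam1a UMIs per Adam1b UMI in late spermatocytes of both libraries, 1.38 (1.30 to 1.47) and 1.36 (1.29 to 1.45) in round spermatids and 5.76 (5.25 to 6.34) and 6.20 (5.46 to 7.05) in elongating spermatids. Free RNA had 0.90 in both libraries. The ratio was thus higher in round than in late spermatocytes and higher again in elongating spermatids, and in these 3 stages the intervals of the 2 libraries overlapped. Adam1a in late spermatocytes (0.20 and 0.18 of free RNA) and Adam1b in elongating spermatids (0.36 and 0.31) lay under free RNA. The ratios of these 2 stages thus rest in part on UMIs that are not read as expression.

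**Figure D2:**
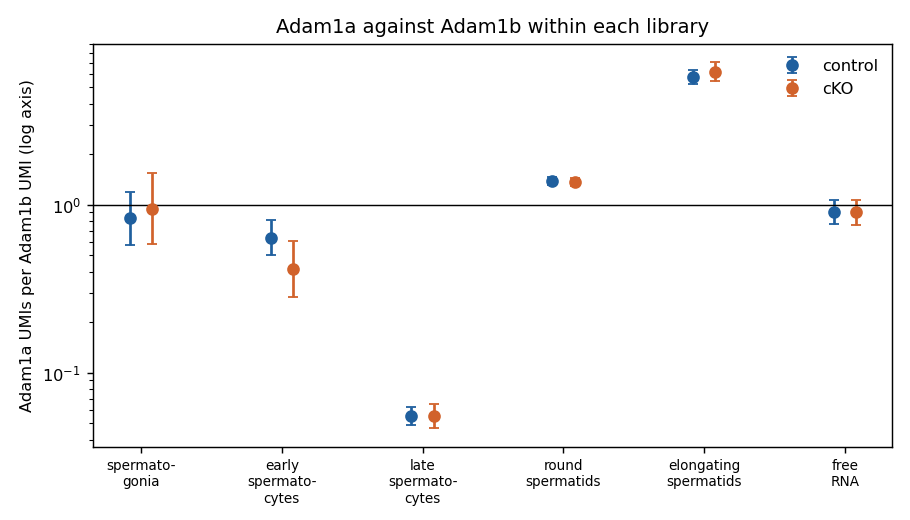
Adam1a UMIs per Adam1b UMI (y axis, log scale) in each germ-cell gate and in free RNA (x axis) for the control library (blue) and the cKO library (orange), with exact 95% intervals for counting error. The ratio is 0.055 in late spermatocytes and 5.76 and 6.20 in elongating spermatids, and the horizontal line marks equal UMI counts, which are not equal levels of the 2 genes. Adam1a in late spermatocytes and Adam1b in elongating spermatids lay under free RNA.

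Adam1a and Adam1b are neighbours on mouse chromosome 5, in the same orientation and 15168 bases apart in the RefSeq annotation of GRCm38.p6 (the patch series of mm10). Adam1a spans chr5:121518604-121521695 and Adam1b chr5:121500096-121503435, both on the minus strand, and Adam1b overlaps the protein-coding gene Tmem116. How tags that match both paralogs were counted is not stated. Their promoter windows, from 250 bases before to 50 after the start, are shown from RefSeq because the pair is adjacent and differs in stage, and because these are the 2 members found in the promoter table. The windows are chr5:121521646-121521945 for Adam1a and chr5:121503386-121503685 for Adam1b, written 5′ to 3′ on the minus strand, with matches to CAACNG in capitals.
Adam1a: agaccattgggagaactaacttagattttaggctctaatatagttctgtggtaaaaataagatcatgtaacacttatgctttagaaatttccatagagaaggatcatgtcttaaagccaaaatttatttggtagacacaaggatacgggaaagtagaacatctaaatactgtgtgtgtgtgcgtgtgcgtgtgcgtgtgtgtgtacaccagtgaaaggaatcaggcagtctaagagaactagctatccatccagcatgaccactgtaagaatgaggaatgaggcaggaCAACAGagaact
Adam1b: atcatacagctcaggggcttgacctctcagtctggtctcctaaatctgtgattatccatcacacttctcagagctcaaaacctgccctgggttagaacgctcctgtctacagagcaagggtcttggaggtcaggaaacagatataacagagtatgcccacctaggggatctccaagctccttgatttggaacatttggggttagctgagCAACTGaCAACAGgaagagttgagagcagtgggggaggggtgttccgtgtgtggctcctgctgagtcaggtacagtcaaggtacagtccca
CAACNG, the core of the site of MYB proteins such as the meiotic regulator MYBL1, was found in Adam1a at position 38 and in Adam1b at positions -41 and -34, counting the start base as 0. Searched on both strands, it occurs in 35.0% of the 32851 promoter windows of the table, so a match is common. TGACG (the core of cAMP response elements, found in 20.8% of windows), GTTGCC (a part of RFX sites, 12.5%) and TATAAA (13.6%) had no match in either window. The G and C content was 39.7% in Adam1a and 51.0% in Adam1b. Promoter sequences of Adam2, Adam3, Adam5, Adam18, Adam24, Adam30 and Adam32 were not used here.

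Adam2 (ENSMUSG00000022039; chr14:66027322-66077851), the fertilin beta subunit and partner of both ADAM1 proteins, followed Adam1b and not Adam1a. Its level was 448 CPM (441 to 455) in control late spermatocytes and 459 (450 to 467) in cKO, 170 and 183 in round spermatids and 46.2 and 40.4 in elongating spermatids. In early spermatocytes Adam2 had 166 CPM in control and 212 in cKO, 1.04 (0.95 to 1.14) and 1.42 (1.28 to 1.58) times free RNA. The other 8 members were at 0.32 to 0.86 of free RNA in that gate in both libraries. The control interval of Adam2 includes 1, as do the intervals of Adam1b in both libraries (0.83 and 0.86 of free RNA) and of Adam24 in control (0.78), so that in control Adam2 is not set apart from these. The early gate also differed in makeup, its 11 early-spermatocyte markers summing to 4809 CPM in control and 3975 in cKO and the 12 late-spermatocyte markers to 1830 and 1947, and the part of this in the Adam2 values was not tested. In spermatogonia Adam2 had 94.5 and 63.2 CPM, 0.59 and 0.43 times free RNA, and every member lay below free RNA there.

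Adam18 (ENSMUSG00000031552), Adam3 (ENSMUSG00000031553), Adam5 (ENSMUSG00000031554) and Adam32 (ENSMUSG00000037437) lie next to each other on chromosome 8, at chr8:24602246-24674755, chr8:24677232-24726377, chr8:24727093-24824369 and chr8:24836143-24948918 in GRCm38.p6. The gaps between them are 2476, 715 and 11773 bases, and the 346673 bases from the first to the last hold no other protein-coding gene. Adam3 overlaps the noncoding Gm51566 and the pseudogene Gm26208, and Adam2 the pseudogene Gm10233, so that some tags of these members could belong to those genes. Adam24 (ENSMUSG00000046723; chr8:40675077-40682199) lies elsewhere on the same chromosome, and Adam30 (ENSMUSG00000043468; chr3:98160634-98164169) on chromosome 3.

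The 4 neighbours did not all share a course: Adam18, Adam32 and Adam5 were highest in late spermatocytes and fell from there, and Adam3 did not. Adam18 had 118 CPM in control late spermatocytes and 132 in cKO, 79.0 and 88.3 in round spermatids and 21.0 and 16.5 in elongating spermatids, a course like that of Adam1b. Adam32 had 423 and 347 CPM in late spermatocytes, 351 and 280 in round spermatids and 149 and 99.0 in elongating spermatids. Adam5 had 594 and 590 CPM in late spermatocytes, 493 and 487 in round spermatids and 365 and 285 in elongating spermatids. Adam3 had 546 and 550 CPM in late spermatocytes, 692 and 724 in round spermatids and 726 and 557 in elongating spermatids. Of the 4, Adam3 alone was higher in round spermatids than in late spermatocytes, by a log2 ratio of 0.34 (0.31 to 0.37) in control and 0.40 (0.36 to 0.43) in cKO. From late to elongating spermatids the log2 ratio in control was 0.41 for Adam3, -0.70 for Adam5, -1.51 for Adam32 and -2.49 for Adam18. In cKO the same ratios were 0.02, -1.05, -1.81 and -3.00, so the order of the neighbours was the same in both libraries. In elongating spermatids Adam18 and Adam32 lay under free RNA in both libraries, and Adam5 in cKO. The order thus rests in part on levels under free RNA. Without the 12 elongating-spermatid markers in the total, the ratio of Adam3 was 0.77 in control and 0.41 in cKO, and that of Adam5 -0.35 and -0.66. Within the same barcodes Adam5 UMIs per Adam3 UMI were 1.09 and 1.07 in late spermatocytes, 0.71 and 0.67 in round spermatids and 0.50 and 0.51 in elongating spermatids.

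Adam30 had 106 CPM in control late spermatocytes and 103 in cKO, 74.9 and 73.2 in round spermatids and 17.1 and 16.0 in elongating spermatids. Adam24 had 5.16 and 2.93 CPM in late spermatocytes, 0.25 and 0.17 of free RNA, and is at background there. In round spermatids it reached 71.4 CPM (68.3 to 74.6) in control and 52.2 (49.6 to 54.9) in cKO, and in elongating spermatids it was again low, at 13.5 and 7.44. The log2 ratio of elongating over round spermatids was -2.40 (-2.55 to -2.25) in control and -2.81 (-3.05 to -2.58) in cKO, far below the ratios of Adam1a given above. In that gate Adam1a and Adam3 were above free RNA in both libraries, and Adam5 was at 1.04 (0.995 to 1.08) times free RNA in control and 0.79 in cKO. The other 6 members were below free RNA in elongating spermatids, at 0.23 to 0.68 of it. Their levels there are not read as expression, but expression is not excluded. Among them Adam18 was at 0.34 and 0.23 of free RNA and Adam32 at 0.68 and 0.49. The share of free RNA in the UMIs of this gate was not measured.

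A finer division gave each member the same stage of highest level. The barcodes were grouped by Leiden clustering without the members into 21 clusters, of which 14 scored highest for the late spermatocyte, round spermatid or elongating spermatid markers. Adam2 was highest in cluster 6, a late-spermatocyte cluster, with 492 CPM in control and 510 in cKO. Adam1b, Adam18, Adam30 and Adam32 were highest in cluster 9, also of late spermatocytes, in both libraries, whereas Adam1a and Adam24 were, on the scale of all UMIs, highest in cluster 12, of round spermatids. In cluster 4, which had the lowest mean stage of the 14, Adam2 had 384 and 385 CPM and Adam5 359 and 326, while Adam3 had 139 and 127. Adam3 was at its lowest of the 14 clusters there in both libraries, and Adam2 and Adam5 were not. In cluster 9 Adam3 had 809 and 813 CPM, and in the late-spermatocyte clusters 6 and 10 it had 464 and 456, and 587 and 578. Of the round-spermatid clusters, cluster 7 had 815 and 863 CPM. The others were lower than cluster 9: 750 and 768 in cluster 2, 594 and 577 in 11, 656 and 698 in 12, and 719 and 675 in 14. The higher Adam3 level of the round gate thus did not hold between all clusters. Among the 14 clusters the span from the lowest to the highest was widest for Adam24, 27.4-fold in control and 33.9-fold in cKO, and narrowest for Adam5, 3.05-fold and 4.07-fold.

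**Figure D3:**
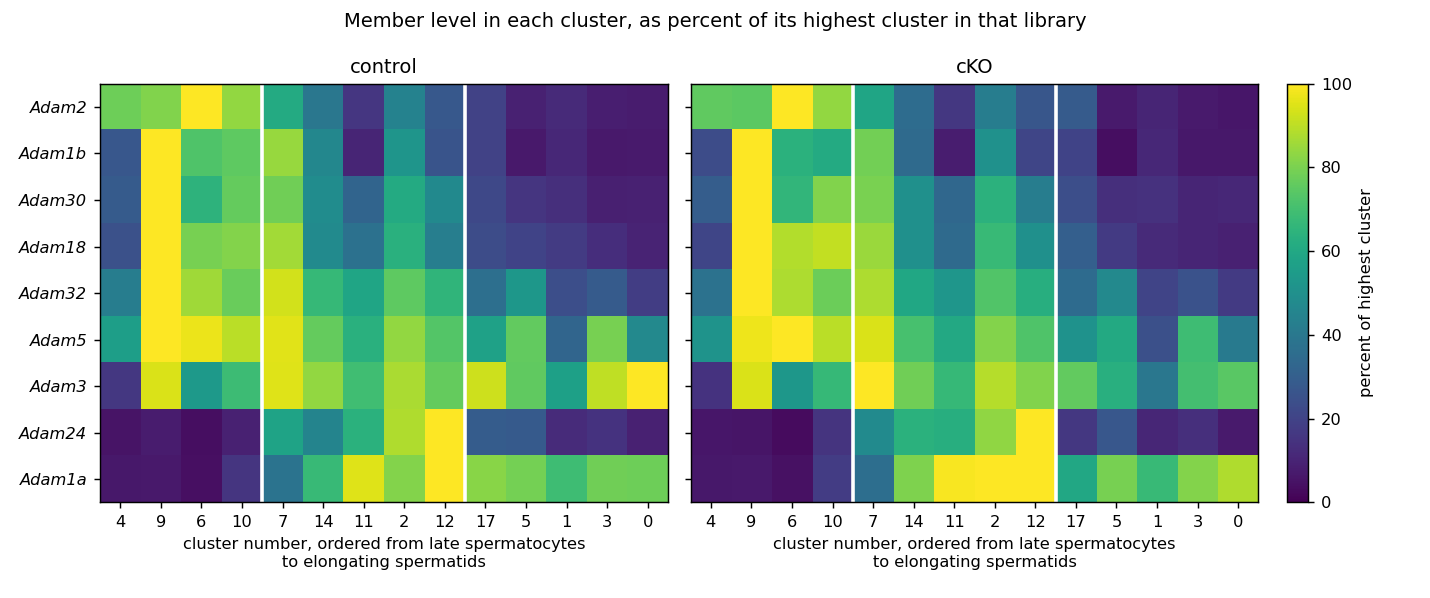
Level of each member (rows) in each of 14 clusters (columns, ordered by the mean stage of their gated barcodes), coloured as percent of that member's highest cluster in the same library. White lines separate clusters of late spermatocytes, round spermatids and elongating spermatids. Adam2 is brightest in the late-spermatocyte clusters and dark in the elongating clusters, Adam1a and Adam24 are dark in the late-spermatocyte clusters and, on the scale of all UMIs, brightest in round-spermatid clusters, and in the elongating clusters Adam24 is dark again while Adam1a and Adam3 are not.

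Detection in single barcodes was compared after each barcode had been thinned, by random draw, to 3000 UMIs. Adam3 was then found in 86.9% (exact binomial 95% interval 85.2 to 88.5) of control and 86.4% of cKO round spermatids, and in 44.2% and 34.7% of Leydig cells. The Leydig share can hold UMIs from free RNA and from predicted doublets (barcodes scored as holding more than 1 cell). Such doublets were kept and made up 7.96% and 9.90% of the Leydig gate. The parts of the 2 sources were not separated. Adam2 was found in 72.8% and 72.2% of late spermatocytes and in 20.4% and 16.8% of Leydig cells. Adam1a was found in 2.71% and 2.05% of late spermatocytes, in 24.9% and 25.4% of round spermatids and in 6.19% and 3.96% of Leydig cells. Adam24 was found in 19.0% (17.1 to 20.9) of control and 14.9% (13.3 to 16.7) of cKO round spermatids, and in 4.42% and 0 of Leydig cells, where 0 of 101 allows a share of up to 3.59% (the upper exact bound). Without thinning, Adam24 was found in 62.6% and 51.1% of round spermatids, whose median depths were 13395 and 12314 UMIs, and in 10.6% and 2.97% of Leydig cells, with medians of 7823 and 6624. Of the 9 members, a thinned barcode held a UMI of 4 at the median in late spermatocytes and in round spermatids of both libraries, of 2 in elongating spermatids and of 1 in Leydig cells. The median was also 2 in early spermatocytes of both libraries and in control spermatogonia, and 1 in cKO spermatogonia.

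**Figure D4:**
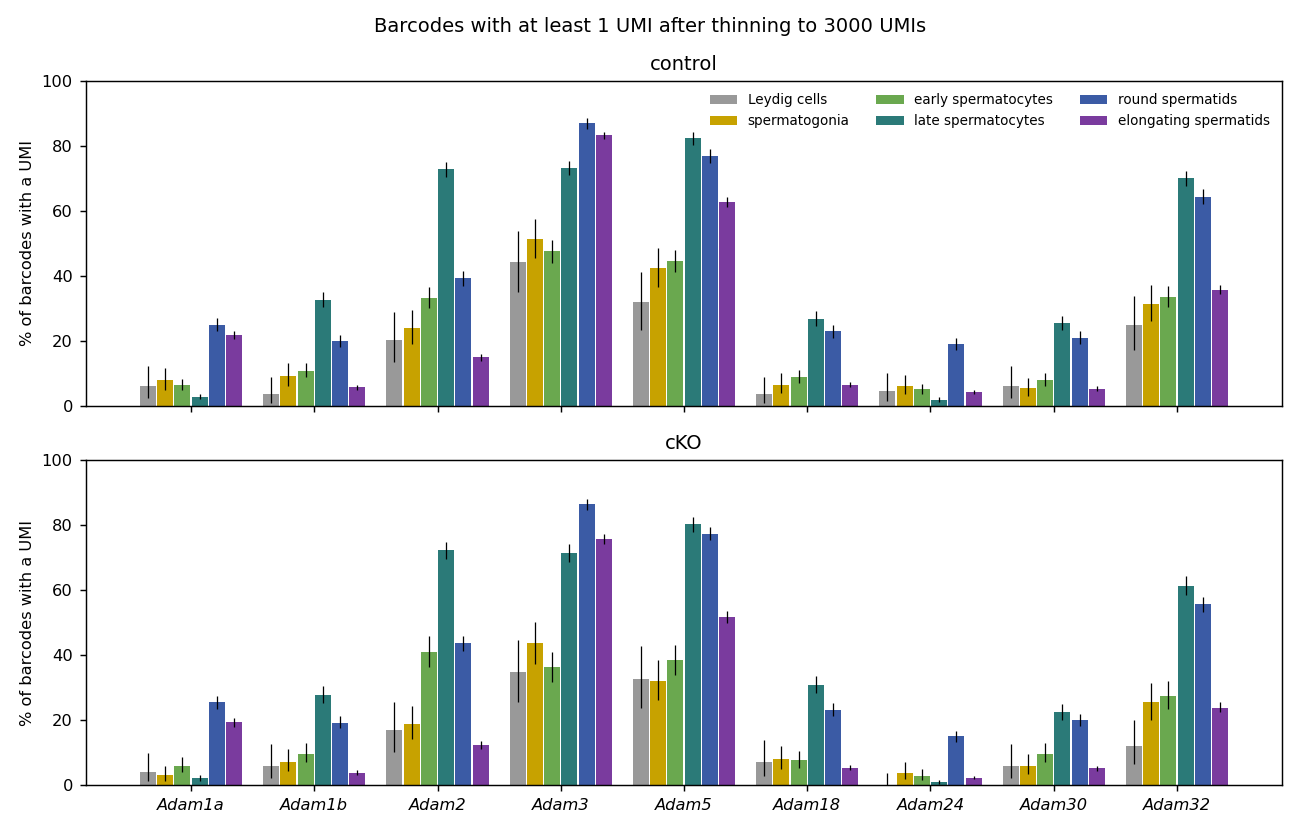
Percent of barcodes with at least 1 UMI of each member (y axis, 0 to 100) after thinning to 3000 UMIs, by gate (colours) in the control library (top) and the cKO library (bottom). Bars start at 0 and lines are exact binomial 95% intervals. The grey Leydig bars are of cells that should lack the members, and in late spermatocytes Adam1a and Adam24 are below them in control.

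The cKO and control libraries were then compared in each gate as a log2 ratio of CPM with an exact conditional binomial 95% interval for counting error. No test of genotype is possible with 1 library each. Genes with at least 50 UMIs over both libraries in the gate were counted as unlike at 1.5-fold. In late spermatocytes 6.49% of genes were past 1.5-fold in either direction, in round spermatids 8.18% and in elongating spermatids 9.96%. Among the members 1 of 9 was past it in late spermatocytes (Adam24, at background), 0 of 9 in round spermatids and 2 of 9 in elongating spermatids (Adam24 and Adam32), all lower in cKO. The Adam24 call in late spermatocytes was lost under 3 of 11 alternatives (under 1 of them, thinning, because too few UMIs were left), over which its log2 ratio ran from -1.05 to -0.03, and the Adam32 call in elongating spermatids under 4 of 11, with a range of -0.68 to -0.46. In early spermatocytes 2 of 9 members (Adam1a and Adam24, both under free RNA) were past it, against 19.1% of genes, and in spermatogonia 0 of the 8 members with enough UMIs, against 11.7% of genes. The members' median log2 ratio was -0.04 in late spermatocytes and -0.03 in round spermatids, where the medians over all genes were -0.04 and -0.01. In spermatogonia and early spermatocytes it was -0.39 and -0.31, where the medians over all genes were -0.09 and -0.10, and all members, except Adam2 in early spermatocytes, had levels under free RNA there.

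**Figure D5:**
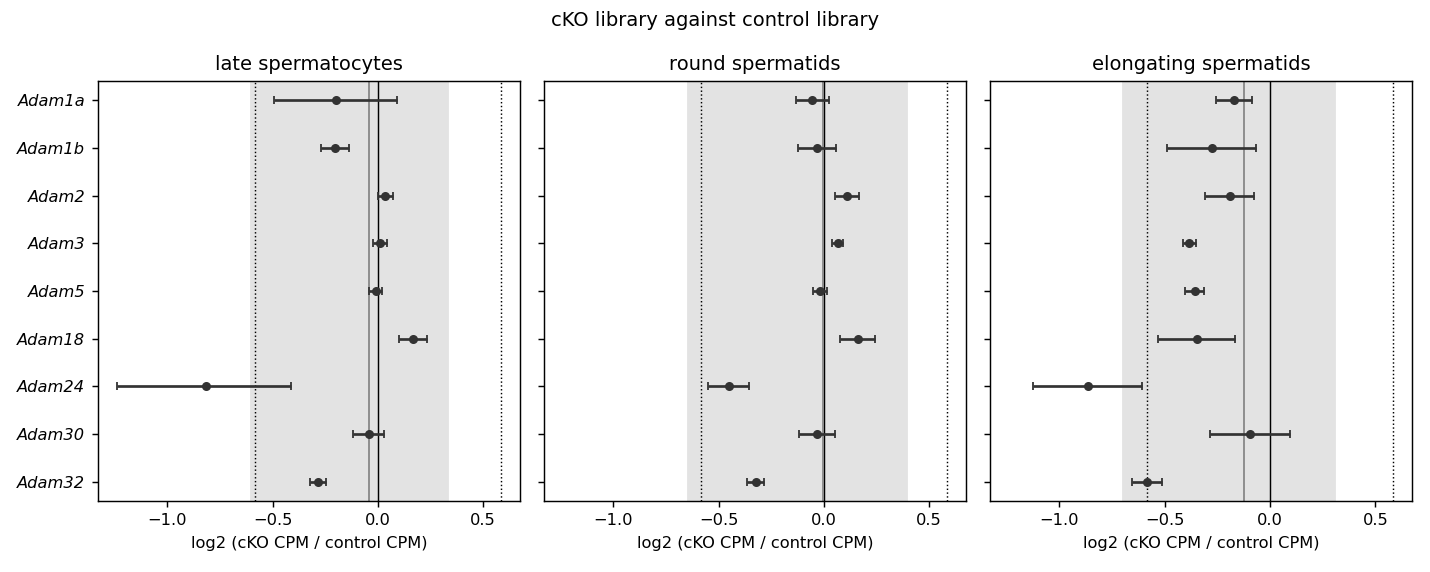
Log2 ratio of cKO over control CPM (x axis) for each member (rows) in 3 gates, with exact 95% intervals for counting error. Grey bands run from the 5th to the 95th percentile of all genes with at least 50 UMIs, grey lines their median, and dotted lines mark 1.5-fold. Adam1a, Adam1b, Adam5, Adam24, Adam30 and Adam32 lie left of 0 in all 3 gates, Adam24 and Adam32 with each interval below 0. In elongating spermatids all 9 members lie left of 0.

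Adam32 was lower in the cKO library in each of these stages. The 423 CPM (416 to 430) of control late spermatocytes stood against 347 (340 to 355) in cKO, a log2 ratio of -0.29 (-0.32 to -0.25). The 351 CPM (344 to 358) of control round spermatids stood against 280 (274 to 286), a log2 ratio of -0.32 (-0.37 to -0.28). These intervals did not overlap between libraries, yet the ratios are inside the range of many genes: 22.2% of genes had a lower ratio in late spermatocytes and 19.0% in round spermatids. In elongating spermatids the ratio was -0.59 (-0.66 to -0.51), just past the 1.5-fold mark, with levels under free RNA in both libraries. Over the 14 clusters Adam32 was lower in cKO in 14, with the interval below 0 in all 14 and ratios from -0.50 to -0.25. In 5 of these clusters Adam32 was under free RNA in both libraries, in 8 it was above it in both, and in 1 in 1 library only. Adam1b was also lower in all 14, with the interval below 0 in 8. Being lower in every one of the 14 clusters was seen in 14.9% of the 4580 genes with enough UMIs in each, and an interval below 0 in every one in 2.71%. Intervals narrow with UMI count, and Adam32 had at least 512 UMIs in each cluster where a gene needed 50. The 2.71% is thus not a share among genes of like UMI count. Free RNA of Adam32 had 218 and 204 CPM, a log2 ratio of -0.10 (-0.20 to 0.01), and Leydig cells 80.0 and 92.3 CPM. The part of free RNA in the Adam32 ratios was not tested.

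Adam24 was lower in cKO round spermatids, its main stage, by a log2 ratio of -0.45 (-0.55 to -0.36), and 11.9% of genes had a lower ratio there. Over the 14 clusters it was lower in cKO in 12, with the interval below 0 in 10, where 29.7% of genes were lower in at least 12 and 13.8% had an interval below 0 in at least 10. These genes were not matched to Adam24 for UMI count either. Of these 10 clusters Adam24 was above free RNA in both libraries in 5 and under it in both in 4. In elongating spermatids the ratio was -0.86 (-1.13 to -0.61), with 468 and 169 UMIs, but both levels lay under free RNA, at 0.65 and 0.44 of it, and Leydig cells had 12 and 3 UMIs (12.3 and 3.79 CPM). Free RNA itself had 149 UMIs in control and 114 in cKO of Adam24, a log2 ratio of -0.28 (-0.64 to 0.08). The part of free RNA in these differences was not tested either.

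Adam3 had a different course in the last stage. In late spermatocytes its log2 ratio of cKO over control was 0.01 (-0.02 to 0.04) and in round spermatids 0.06 (0.04 to 0.09), whereas in elongating spermatids it was -0.38 (-0.41 to -0.35), with 25122 UMIs in control and 12659 in cKO. Free RNA had more Adam3 in cKO, 473 CPM against 435. In the 5 elongating clusters the ratio was -0.50 to -0.25, with each interval below 0, and in the other 9 clusters it was -0.13 to 0.09. Adam5 had ratios of -0.01, -0.02 and -0.36 (-0.40 to -0.32) in the same 3 gates, and Adam1a -0.20, -0.05 and -0.17 (-0.26 to -0.09). Every member except Adam1a had its lowest ratio of these 3 gates in elongating spermatids, so this course was not particular to Adam3. In that gate 21.5% of genes had a lower ratio than Adam3.

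All 9 members had lower levels in cKO elongating spermatids, with 8 intervals below 0 and a median of -0.35. Of all genes in the gate 67.2% were lower in cKO and 28.3% had an interval below 0, with a median of -0.12 and 5th and 95th percentiles of -0.70 and 0.31. All genes with at least 50 UMIs enter the 28.3%, so it is not a share among genes of like UMI count. Of the 9 members 6 were under free RNA in both libraries here, as given above, so their ratios are not read as a difference in expression. The gate itself was not the same in both libraries. Its 12 elongating-spermatid markers summed to 223772 CPM in control and 242097 in cKO, its 10 round-spermatid markers to 693 and 601, and its 12 late-spermatocyte markers to 607 and 547, with no marker at 0. The part of this difference in the members' ratios was not tested. With the protamine and transition protein genes left out of the scale, the ratio of Adam3 was -0.34, and with a median-ratio scale it was -0.26.

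Adam18 had the highest ratio of the 9 members in late spermatocytes and in round spermatids. It had 118 CPM (114 to 121) in control late spermatocytes and 132 (128 to 137) in cKO, a log2 ratio of 0.17 (0.10 to 0.23), and a ratio of 0.16 (0.08 to 0.24) in round spermatids. Free RNA of Adam18 had a ratio of 0.21 (0.02 to 0.40). Adam2 had 0.03 in late spermatocytes, with an interval that includes 0, 0.11 (0.05 to 0.17) in round spermatids and 0.35 (0.19 to 0.50) in early spermatocytes. In Leydig cells, which should lack it, Adam2 had a larger ratio of 0.70 (0.15 to 1.25), with 51 UMIs in control and 67 in cKO, and Adam18 0.94 (0.03 to 1.88), with 18 and 28. The part of free RNA in the higher ratios of Adam18 and Adam2 was not tested. Adam30 had -0.04, -0.03 and -0.09 in late spermatocytes, round spermatids and elongating spermatids, each with an interval that includes 0.

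The genes that serve ADAM3 did not share 1 stage of highest level. All 18 listed genes for its processing and transport were expressed, and in control 3 were highest in spermatogonia, 5 in early spermatocytes, 3 in late spermatocytes, 3 in round spermatids and 4 in elongating spermatids. Over all genes the shares were 27.3%, 17.1%, 21.9%, 22.4% and 11.3%, so nothing is read from the counts. Levels in the highest stage are not compared between genes. The general chaperones Hspa5 (2775 CPM in control and 1851 in cKO) and Calr (1714 and 1798) and the GPI-anchored Tex101 (1479 and 1963) were highest in early spermatocytes, and Cmtm2b (1312 and 1477) in late spermatocytes. Clgn, the chaperone that assembles the fertilin dimers, was highest in late spermatocytes, with 996 CPM in control and 880 in cKO, the stage of Adam2 and Adam1b. Pdilt, a testis chaperone of ADAM3, was highest in round spermatids, with 256 and 233 CPM, and so was Cmtm2a, with 1072 and 1258. Calr3, Ace and Prss37 were highest in elongating spermatids, with 141 and 114, 383 and 285, and 133 and 115 CPM. Past 1.5-fold, 4 of 17 tested genes were lower in cKO spermatogonia and 7 of 17 in early spermatocytes, where 9.71% and 16.4% of all genes were. Of these, 3 of the 4 in spermatogonia (Clgn, Calr3 and Prss55) and 6 of the 7 in early spermatocytes (Calr3, Pdilt, Ace, Prss37, Prss55 and Pmis2) lay under free RNA in both libraries, and those counts are not read as lower expression. The other genes were Hspa5 in spermatogonia (594 CPM in control and 386 in cKO) and Pgap1 in early spermatocytes (7.68 and 4.01 CPM, against 7.36 and 9.57 in free RNA). Further, 1 of 18 was lower in cKO late spermatocytes (Prss37, -0.74), 1 of 17 tested in round spermatids (Prss37, -0.75 with an interval of -0.84 to -0.66) and 2 of 17 in elongating spermatids (Pgap1, -1.09, and Canx, -0.61), and 0 were higher in any of the 5 stages. Over all genes 5.40%, 6.66% and 9.06% were that much lower in these 3 stages. Prss37 had 88.9 CPM in control round spermatids and 52.9 in cKO, and in free RNA 61.9 and 37.7. Its levels in late spermatocytes, and those of Pgap1 and Canx in elongating spermatids, lay under free RNA in both libraries.

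The other ADAM genes of the testis were unlike most of the 9 members in stage. Of 14 listed genes 11 were expressed, and 11 of 11 were highest in round spermatids in both libraries. Of all genes with at least 50 UMIs, 22.4% were highest there in control and 22.8% in cKO. Among the 11 were Adam20 (71.9 CPM in control, 86.3 in cKO), Adam29 (71.3 and 73.1), Adam26a (64.4 and 64.9) and Adam39 (53.9 and 58.9). Adam24 shared this stage. Adam4 had the lowest ratio of cKO over control in round spermatids, -0.56 (-0.69 to -0.42), and was the 1 gene of 11 past 1.5-fold in elongating spermatids, at -0.69 (-0.88 to -0.51). In late spermatocytes 3 of 11 were past it and in early spermatocytes 5 of 10, all lower in cKO, and in round spermatids 0 of 11, with the shares over all genes as above (5.40% in late spermatocytes, 16.4% in early spermatocytes and 9.06% in elongating spermatids). In late spermatocytes all 11 were under free RNA in both libraries. So were 4 of the 5 in early spermatocytes (Adam6b, Adam21, Adam26b and Adam39). The other, Adam34, had 8.06 CPM in control and 3.28 in cKO against 7.36 and 7.93 in free RNA. These counts thus rest on levels near or under free RNA. Of 11 widely expressed ADAM genes 3 were expressed in the germ cells (Adam10, Adam15 and Adam17), each highest in spermatogonia. Of all genes 27.3% were highest there in control and 25.8% in cKO. Lower in cKO past 1.5-fold were 1 of 3 tested genes of this list in spermatogonia (Adam10), 2 of 2 in early spermatocytes (Adam10 and Adam17), 1 of 4 in late spermatocytes (Adam17), 2 of 5 in round spermatids (Adam11 and Adam22) and 2 of 4 in elongating spermatids (Adam10 and Adam17), and 0 were higher. Over all genes the shares were 9.71%, 16.4%, 5.40%, 6.66% and 9.06%. Adam10, also a shedding protease, had 46.5 CPM in control spermatogonia and 30.3 in cKO, a log2 ratio of -0.62 (-1.15 to -0.10), and 20.7 and 10.6 in early spermatocytes, a ratio of -0.97 (-1.62 to -0.37). Free RNA of Adam10 had 11.0 and 10.0 CPM. Adam17, another such protease, had a ratio of -0.67 (-1.20 to -0.16) in early spermatocytes, at levels above free RNA in both libraries. In elongating spermatids Adam10 and Adam17 lay under free RNA in both libraries, as did Adam11 in round spermatids. Adam17 had 9.47 CPM in control late spermatocytes and 5.43 in cKO, a log2 ratio of -0.80 (-1.11 to -0.51), and free RNA 8.05 and 10.3. Of 11 genes listed for the interaction of sperm and egg, or as Izumo relatives, 9 were highest in round spermatids in both libraries. The shares over all genes were 22.4% in control and 22.8% in cKO. Among the 9 was Izumo1, the sperm ligand of the egg receptor, with 174 and 175 CPM. Spaca4 (546 and 561 CPM), Llcfc1 (528 and 557) and Izumo3 (286 and 280) were also highest in round spermatids, and Izumo2 (482 and 465) in elongating spermatids. Past 1.5-fold and lower in cKO were 1 of 7 tested in spermatogonia (Izumo1), 4 of 9 in early spermatocytes (Izumo1, Dcst1, Izumo2 and Izumo3), 0 of 11 in late spermatocytes and in round spermatids, and 1 of 11 in elongating spermatids (Dcst1, -0.64 with an interval of -0.99 to -0.30). Each of these lay under free RNA in both libraries, and 0 were higher in any of the 5 stages.

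Likeness of course was measured by Pearson's r of log2(CPM + 1) over the 5 germ-cell gates of both libraries, 10 points that share 2 libraries and their free RNA. Among the members the highest r were 0.97 between Adam18 and Adam30 and 0.96 between Adam1b and Adam30, and the lowest was -0.67, between Adam1a and Adam2. Adam1a and Adam1b had -0.53. Of the neighbours on chromosome 8, Adam32 had 0.94 with Adam18, 0.90 with Adam5 and 0.64 with Adam3. Adam5 had 0.87 with Adam3 and 0.78 with Adam18, and Adam3 and Adam18 had 0.49. Among 11583 other genes, those most like Adam1a were Col22a1, Usp50 and Ddi1 (r of 0.998, 0.997 and 0.997). Those most like Adam2 were 4931415C17Rik, Trafd1 and Mroh4, those most like Adam30 were Dpp10, Ldha and Fam170a, and those most like Adam18 were Mxra8, Ccdc178 and Akirin2. Adam1b was most like 1700010I14Rik, Dpy19l2 and Vps26a, Adam3 like 1700001G01Rik, 4930449C09Rik and 1700017D01Rik, and Adam5 like Optn, Sept12 and Fbxw10. Adam24 was most like Celf3, Gm48051 and Coro2a, and Adam32 like Stk39, Tmed6 and C530008M17Rik.

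No member exceeded free RNA in the spermatogonia gate of the single-cell libraries, but this gate was not matched to the sorted cKIT+ cells. In cKIT+ spermatogonia an ATAC region of the authors' lists lay within 1000 bases of 5 of the 9 members in at least 1 library (Adam1a, Adam1b, Adam3, Adam18 and Adam32), compared with 73.4% of 21896 protein-coding genes. Regions were called in each library separately. For Adam1a, Adam1b, Adam3 and Adam32 a region was found only in control library 2, cKO library 3 or both. Adam18 had a region in each of the 5 libraries, but no region was common to all of them. The control 2 regions, chr8:24610593-24610870 and chr8:24636013-24636239, did not overlap the control 1 region given below. The Adam1a regions, chr5:121519238-121520440 in control 2 and chr5:121519263-121520110 in cKO 3, lie inside the gene and do not cover its start, and neither do those of Adam1b. The Adam32 regions lie 150 bases from the high end of the gene in control 2 and 8 bases in cKO 3. At Adam18 the control 1 region chr8:24639866-24640654 and the cKO 1 region chr8:24639027-24639499 lie far inside the gene, at least 34101 bases from either end, whereas 1 of the 3 regions of cKO 3, chr8:24674377-24674789, covers the high end of the gene. H3K27me3, the mark that KDM6A removes, was called within 1000 bases of 1 member, Adam18, in 2 of 2 control and 1 of 3 cKO libraries, compared with 26.8% of protein-coding genes in at least 1 library. The control 1 region was chr8:24639815-24641963 and the cKO 2 region chr8:24638934-24640909, which overlap in the middle of the gene. The control 2 region, chr8:24606562-24608977, lies 4316 bases from the low end of the gene and overlaps neither, so the 2 control libraries did not share a region. File names mark 4 of the 5 H3K27me3 libraries as downsampled and do not mark cKO 2. The IgG library had no region at a member. Peak presence depends on the depth of each library, which is unknown here, and the difference between genotypes was not tested.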

How the data were processed

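The 2 single-cell matrices held whole-number UMI counts, deposited by the authors with no barcode left out and made with Cell Ranger 4 per the file headers. The submitters' processing notes name mm10 and Seurat 4.1.0. The ATAC-seq lists of the authors give a score, a fold enrichment (ratio) and -log10 p and q per peak, and the CUT&Tag lists of the authors give signal per region; the notes name cutadapt, Bowtie2, MACS2, SAMtools, deepTools and SEACR.

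From the counts, barcodes with at least 3000 UMIs were kept and scored for 10 marker lists (mean of log(1 + UMIs per 10000), each gene scaled to SD 1), and a lead of 0.25 set the gate. UMIs were summed per gate and library. Predicted doublets (591 control and 512 cKO barcodes) were kept, and leaving them out was an alternative. Clusters were made with scanpy 1.11.5 and leidenalg 0.10.2 (2000 variable genes without the members, 30 components, 15 neighbours, resolution 1). Exact intervals were computed with scipy 1.17.1, and the ratio code was tested on simulated data. A gene counted as expressed at 10 CPM or more in a germ-cell stage of both libraries. For the stage of highest level, genes with at least 50 UMIs over the stages of a library entered. Stage levels without the protamine and transition protein genes, and without the 12 elongating-spermatid markers, were alternatives chosen after seeing the data.

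All 9 members are named. Of other lists, the 4 highest genes and those past 1.5-fold were eligible, and for likeness the 3 genes of highest r per member among genes at 10 CPM or more. In addition, some genes were named for their role or rank after their values were seen. The members and lists were chosen with earlier results of these data known. Bulk RNA-seq was not used here, since its transcript identifiers are not paired with genes in the files.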

Additional observations from a re-analysis of the deposited data

Results flagged for a closer look

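The step of Adam3 from round to elongating spermatids went in opposite directions in the 2 libraries on the scale of all UMIs of a stage. The log2 ratio of elongating over round spermatids was 0.0700 (0.04 to 0.10) in control and -0.38 (-0.41 to -0.35) in cKO. When stages were taken from the Leiden clusters, the control ratio was 0.012 (-0.013 to 0.037), an interval that includes 0. On other scales the ratio changed as follows. With the 12 elongating-spermatid markers left out of the totals it was 0.39 (0.37 to 0.42) in control and -0.01 (-0.04 to 0.02) in cKO. With only the protamine and transition protein genes left out it was 0.37 and -0.03. The signs stayed opposite on both scales, but the cKO step was smaller, and without the 12 markers its interval includes 0. In UMIs per barcode, not scaled by depth, Adam3 was lower in elongating than in round spermatids in both libraries. It had 5.83 against 11.5 in control and 4.09 against 11.9 in cKO. The difference between the libraries was not tested, because each genotype has 1 library.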

How the results depend on the processing

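The comparisons were repeated under 13 alternatives, of which 2, both on the scale of stage levels, were chosen after seeing the data. Of 93 counts of members, 80 stayed within 1.5 times the main count. The count of members 1.5-fold lower in cKO late spermatocytes, 1, was 0 with no lead required, with barcodes thinned to 3000 UMIs and with Leiden clusters. The count in elongating spermatids, 2, was 1 with a minimum of 5000 UMIs, with no lead required, with the scale without protamines and transition proteins and with the median-ratio scale. Of 297 log2 ratios of cKO over control, 270 stayed within the counting interval of the main value, 27 moved outside it, and 9 had the other sign, none for a ratio past 1.5-fold. The ratio of Adam24 in round spermatids ranged from -0.46 to -0.39 and that of Adam32 from -0.34 to -0.32, and Adam3 in elongating spermatids ranged from -0.40 to -0.26. All 180 log2 ratios of round over late kept their sign, and 71 moved outside the counting interval. Of 180 ratios of elongating over round spermatids 176 kept their sign. The other 4 were those of Adam1a on the 2 added scales, at 0.16 in control and 0.086 in cKO without protamines and transition proteins and 0.18 and 0.11 without the 12 elongating-spermatid markers. On both scales the count of members highest in round spermatids was 1 in control in place of 2, and that of members highest in elongating spermatids 2 in place of 1 in control and 1 in place of 0 in cKO. Of 180 ratios of elongating over late 178 kept their sign, the exceptions being Adam3 in cKO, at -0.01 with a minimum of 5000 UMIs and -0.10 with a lead of 0.5. The cause of these moves was not tested. At 1 library per genotype no alternative gives a replicate error, and intervals cover counting error only.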
